A study of Mus musculus with 6 samples.

Results

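Interleukins are secreted proteins through which leukocytes, stromal cells and epithelia signal to each other, and their receptors are assembled from membrane chains that are shared between ligands. IL-1 family cytokines signal through receptors with a Toll/IL-1 domain towards NF-kB. Most other families signal through Janus kinases and STAT factors. Decoy receptors and soluble antagonists hold the ligand, or occupy its receptor, without signalling. Described here are all genes of the deposited table whose symbol is Il followed by a digit, 51 of 13912 genes. The annotation GENCODE M21 holds 83 symbols of that form, and those outside the table were not analysed here. By textbook role the 51 were 19 ligands or ligand subunits, 27 receptor chains, 4 decoys or antagonists and 1 antisense RNA, Il1bos.

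RNA was sequenced from 6 libraries of 4T1-Luc2-RFP cells, a mammary carcinoma line of BALB/c mice labelled with luciferase and a red fluorescent protein. The first 3 came from the line kept in culture (cultured libraries 1 to 3). The other 3 came from cells that were isolated by fluorescence-activated sorting out of MIND tumours, grown in the mammary glands after delivery into the ducts (tumour libraries 1 to 3). The titles of the tumour libraries name the right side, and the labels used here give no age, no time after injection and no gate for the sort. The cultured libraries are not labelled as sorted. Whether each library of a group had an animal or a culture of its own is not said, so a p-value refers to spread between libraries that may be technical in origin.

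The libraries held 35448588 to 41469090 reads over the genes of the table. The epithelial and carcinoma markers, 13 of 14 of them in the table, summed to 2868 to 3740 CPM (read counts scaled to a common library total) in culture and 2859 to 3349 CPM in the tumour libraries, and 6 of the 13 fell (the E-cadherin gene Cdh1, Krt7, Cldn3, Esrp1, Ovol1 and Elf3), 1 rose (Krt14) and 6 did not pass, with a median log2 change of -0.53. Markers of host cells were present beside them. All 17 macrophage and monocyte markers rose, from summed levels of 28.3 to 39.1 CPM to 7228 to 10769 CPM, with Ms4a7 at 0 reads in culture. All 11 neutrophil markers in the table rose, from 85.6 to 101 CPM, most of it Mmp9, to 1370.0 to 4343 CPM. Mmp9 had means of 91.5 CPM in culture and 1089.5 CPM in the tumour libraries. At 10.12 log2 CPM it also made up most of the sum in tumour library 2, the lowest of the tumour sums. Retnlg, Mmp8 and Ngp were at 0 reads in culture. Fibroblast markers rose in 11 of 11 cases, to 6650.2 to 8630 CPM, and endothelial markers in 9 of 10, to 116 to 170 CPM. Of 18 lymphocyte markers 7 were in the table, and 5 of these rose, with Cd4, Cd8a, Gzmb and Klrb1c at 0 reads in culture. The sums of the 7, most of them from Gata3 at means of 45.6 CPM in culture and 51.5 CPM in the tumour libraries, were 42.1 to 63.6 CPM in culture and 53.5 to 68.0 CPM in the tumour libraries. All 8 mast cell and basophil markers in the table rose, to 13.6 to 25.8 CPM. No gene of the table has fewer than 61 reads over the 6 libraries, and many host markers had fewer than that in culture. They were 13 of the 17 macrophage, 10 of the 11 neutrophil, 8 of the 11 fibroblast and 8 of the 10 endothelial markers. Of the lymphocyte and mast cell markers they were 5 of the 7 and 7 of the 8. Of all such genes 85.1% were called higher, a direction that this minimum in part fixed. Among all genes the share was 29.5%. The part of host RNA in the levels below was not tested, and in such bulk libraries more cells of a type and more RNA per cell cannot be told apart.

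Of the 51 genes, 36 rose and 1 fell in the tumour libraries (limma, Benjamini-Hochberg adjusted p under 0.05 over all genes). Among all genes tested, 48.2% were called, 29.5% higher and 18.8% lower. The median log2 change, tumour minus cultured, was 2.97 for the 51 genes and 0.08 for all genes. After quantile normalization the split was 31 higher and 10 lower, and with libraries centred on the epithelial list it was 34 and 5. The groups did not overlap in 42 of the 51 genes, in 39 with the tumour libraries above and in 3 with them below. Over all genes the share without overlap was 59.8%, with 34.6% above and 25.2% below. The table holds no gene with fewer than 61 reads over the 6 libraries, and 20 of the 51 genes had fewer than that in culture, so they were in the table through their tumour reads. Of these 20, 19 were called higher, against 85.1% of all such genes, a direction that this minimum in part fixed. Among the other 31 genes, 17 rose and 1 fell, where the shares over all genes of that kind were 18.9% higher and 22.3% lower. Among the 26 genes whose mean in culture was 1 CPM or more, 14 rose and 1 fell, against 18.1% and 23.2% of all such genes.

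**Figure D1:**
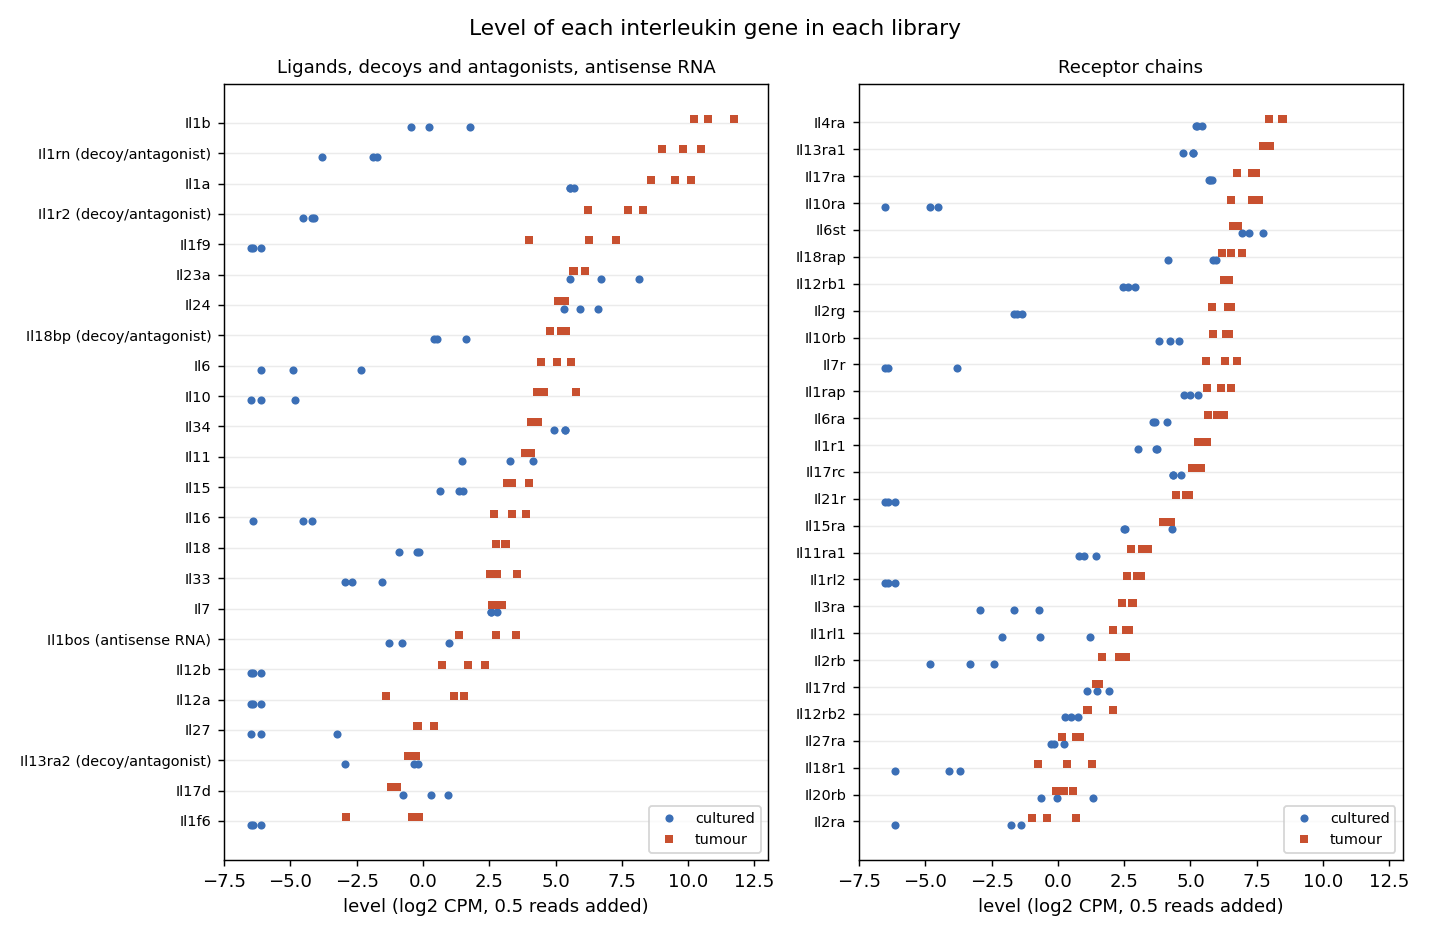
Level of each of the 51 genes in each library, in log2 CPM with 0.5 reads added, with ligands, decoys and the antisense RNA on the left and receptor chains on the right. Circles are the 3 cultured and squares the 3 tumour libraries. Il1b stands at 10.22 to 11.71 in the tumour libraries and -0.45 to 1.77 in culture, while Il17d, Il34 and Il6st have all their tumour squares below their cultured circles.

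Promoters of some of the genes called higher, picked by hand, are shown here. The windows, from RefSeq on GRCm38.p6, are 300 bases running from 250 before to 50 after a start site. They are those of the IL-1 ligands Il1a (chr2:129309923-129310222, minus strand) and Il1b (chr2:129371090-129371389, minus strand), the antagonist Il1rn (chr2:24336610-24336909, plus strand, 1 of 3 start sites listed), the IL-36 gamma gene Il1f9 (chr2:24186226-24186525, plus strand) and the ligand Il6 (chr5:30012864-30013163, plus strand). Capitals mark a match, on either strand, to the letters GGGANNNNCC (a loose form of the NF-kB site), TGANTCA (AP-1), TTGCNNAA (a form of the C/EBP site), TTCNNNGAA (STAT), GAGGAAGT (a form of the PU.1 site) or TATAAA (the TATA box).
Il1a: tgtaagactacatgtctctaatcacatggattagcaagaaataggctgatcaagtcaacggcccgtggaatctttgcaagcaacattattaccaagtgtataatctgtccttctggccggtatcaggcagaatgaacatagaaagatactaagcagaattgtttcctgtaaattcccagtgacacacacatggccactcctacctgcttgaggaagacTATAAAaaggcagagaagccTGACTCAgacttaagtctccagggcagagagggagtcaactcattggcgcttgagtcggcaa
Il1b: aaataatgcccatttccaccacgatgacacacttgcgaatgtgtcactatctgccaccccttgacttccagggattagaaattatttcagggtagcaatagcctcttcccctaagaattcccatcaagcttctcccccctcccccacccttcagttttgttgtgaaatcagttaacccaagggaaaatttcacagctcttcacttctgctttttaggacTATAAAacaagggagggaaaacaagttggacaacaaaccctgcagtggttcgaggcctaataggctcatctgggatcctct
Il1rn: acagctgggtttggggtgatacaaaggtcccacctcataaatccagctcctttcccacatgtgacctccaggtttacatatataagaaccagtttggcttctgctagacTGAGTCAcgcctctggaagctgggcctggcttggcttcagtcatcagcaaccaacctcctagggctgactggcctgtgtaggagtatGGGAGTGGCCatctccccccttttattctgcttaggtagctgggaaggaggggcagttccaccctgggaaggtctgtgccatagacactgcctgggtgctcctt
Il1f9: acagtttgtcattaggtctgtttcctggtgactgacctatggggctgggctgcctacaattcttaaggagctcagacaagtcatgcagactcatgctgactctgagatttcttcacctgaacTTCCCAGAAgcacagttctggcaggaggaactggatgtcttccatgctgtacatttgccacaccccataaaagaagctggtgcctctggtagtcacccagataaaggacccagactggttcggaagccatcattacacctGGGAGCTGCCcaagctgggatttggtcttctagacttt
Il6: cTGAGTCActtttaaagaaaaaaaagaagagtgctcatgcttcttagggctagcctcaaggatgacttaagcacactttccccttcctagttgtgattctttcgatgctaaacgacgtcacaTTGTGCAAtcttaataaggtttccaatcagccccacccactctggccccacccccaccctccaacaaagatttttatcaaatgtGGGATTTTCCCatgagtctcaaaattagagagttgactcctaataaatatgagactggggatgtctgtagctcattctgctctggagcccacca
In Il1a and Il1b the TATAAA match begins 32 and 31 bases before the start site. Il1a has an AP-1 match 12 bases before it. The Il6 window holds GGGATTTTCC 44 bases before the start, overlapped by a match of the same motif on the other strand, and also an AP-1 and a C/EBP match. Windows were found for 37 of the 51 genes, 50 windows in all. The NF-kB letters occurred in 28% of them and in 20.7% of the 32841 windows of all genes. For AP-1 the shares were 14% and 7.81%, for C/EBP 20% and 10.8%, for STAT 14% and 8.3%, for TATAAA 16% and 13.6%, and for PU.1 2% and 3.2%. A match of letters is a description of these windows and no evidence of binding.

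The IL-1 ligands were the most abundant interleukins of the tumour libraries. Il1b, the secreted IL-1 beta that needs cleavage to act, was at 1.17, 3.40 and 0.718 CPM in cultured libraries 1, 2 and 3 and at 3357, 1194 and 1737 CPM in tumour libraries 1, 2 and 3. Every tumour value lay far above every cultured one, and tumour library 2 was the lowest of its group. Its log2 change was 10.38 (SE 0.59, limma adjusted p = 4.88e-06). The gene lies on chromosome 2 from 129364570 to 129371139 (GRCm38, as all coordinates here), beside Il1a.

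Il1a, which encodes IL-1 alpha, an alarmin active without cleavage, was already expressed in culture, at 46.9, 51.9 and 46.5 CPM. In the tumour libraries it stood at 1112, 385 and 721 CPM, again without overlap and with tumour library 2 lowest. The log2 change was 3.80 (SE 0.35, limma adjusted p = 6.48e-05). The order of these neighbours was turned around. Per kilobase of exon, the level of Il1b divided by that of Il1a was 0.026, 0.068 and 0.016 in the cultured libraries and 3.12, 3.21 and 2.49 in the tumour libraries. The antisense RNA Il1bos, which shares 25 exon bases with Il1b, rose by 2.89 on the log2 scale (SE 0.73, limma adjusted p = 0.0128), and after quantile normalization the change was 1.01 and did not pass (limma adjusted p = 0.23). The sources used here do not say whether counting used the strand, so its reads and those of Il1b cannot be told apart with certainty.

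Il1f9 and Il1f6, the genes of IL-36 gamma and IL-36 alpha of the same family, had 0 reads in all cultured libraries. Il1f9 reached 154, 16.0 and 75.9 CPM in tumour libraries 1, 2 and 3, at least 3264-fold above a floor of 3 reads over the cultured group. The spread among the tumour libraries was wide for this gene, with library 2 again the lowest. Il1f6 stayed at 0.123 to 0.897 CPM, at least 23.4-fold above the same floor. Floors and counting intervals cover counting error only.

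Il18, whose product acts with IL-12 on lymphocytes to induce interferon gamma, was at 0.845, 0.883 and 0.517 CPM in culture and 8.84, 6.72 and 8.52 CPM in the tumour libraries. Its log2 change was 3.43 (SE 0.32, limma adjusted p = 7.78e-05). Il33, an alarmin of barrier and stromal cells, was at 0.117, 0.331 and 0.144 CPM in culture against 5.72, 6.96 and 11.8 CPM. The log2 change was 5.35 (SE 0.48, limma adjusted p = 5.82e-05). All 6 IL-1 family ligands in the table rose. The call of Il1f6 was lost after quantile normalization (0.33, limma adjusted p = 0.63), and Il1f6, Il1f9 and Il33 were among the genes with fewer than 61 cultured reads.

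Of the 6 ligand genes of the IL-6 and IL-12 families, 4 rose and 2 did not pass, where 29.5% of all genes were called higher. The 4 that rose, Il6, Il12a, Il12b and Il27, each had fewer than 61 cultured reads. Of all such genes 85.1% were called higher, so the minimum of 61 reads in part fixed their direction. Il6, the cytokine of the acute phase response, was at 0.188, 0.0221 and 0 CPM in culture and at 47.9, 21.6 and 33.5 CPM in the tumour libraries. The log2 change was 9.48 (SE 0.90, limma adjusted p = 7.89e-05), from 9 cultured reads in all. Il12a and Il12b, the subunits of IL-12, had 0 cultured reads and were at least 72.7-fold and 132.9-fold higher, at 1.82 ± 1.30 and 3.30 ± 1.70 CPM (SD, n = 3). Il27, a subunit that pairs with the product of Ebi3, reached 1.01 ± 0.27 CPM (SD, n = 3) from 4 cultured reads, and its call was lost after quantile normalization (0.86, limma adjusted p = 0.30). Of the exon bases of Il27, 10.1% overlap those of Apobr on the other strand.

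The other ligands of these families were expressed in culture. Il23a, the p19 subunit that joins the product of Il12b to form IL-23, was at 284, 105 and 46.1 CPM in cultured libraries 1, 2 and 3. It was at 69.0, 50.7 and 52.2 CPM in the tumour libraries, inside the cultured range. The log2 change of -0.97 (SE 0.57) did not pass (limma adjusted p = 0.20). It was -1.61 without cultured library 3 and -0.29 without cultured library 1, and over 13 alternatives its adjusted p ranged from 0.00562 to 0.54. Il12b was at 0 reads in culture.

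Il11, a cytokine of the IL-6 family with roles in bone metastasis and fibrosis, was at 17.7, 9.76 and 2.78 CPM in culture and 15.6, 14.4 and 16.8 CPM in the tumour libraries. The groups overlapped, and the log2 change was 0.99 (SE 0.60, limma adjusted p = 0.21). It was 1.58 without cultured library 1 and 0.25 without cultured library 3, and its adjusted p ranged from 0.0478 to 0.73 over 13 alternatives.

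Il10, the gene of an anti-inflammatory cytokine of macrophages and lymphocytes, had 1 cultured read and stood at 23.7, 19.9 and 54.2 CPM in the tumour libraries. The ratio over that read was 3975 (95% counting interval 713 to 157042). Il24, of the same family and in one stretch of 143 kb with Il10 on chromosome 1, was at 60.9, 39.8 and 96.8 CPM in culture and 34.4, 33.7 and 40.5 CPM in the tumour libraries. The highest tumour value lay just above the lowest cultured one, and the log2 change was -0.77 (SE 0.31, limma adjusted p = 0.0709). It was -1.09 without cultured library 2 and -0.45 without cultured library 3, with adjusted p between 0.00203 and 0.17 over 13 alternatives.

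Il34 was the gene that fell. Its product is a second ligand of the CSF1 receptor, through which macrophages are maintained. It was at 30.3, 40.7 and 41.2 CPM in culture and 16.8, 20.3 and 18.2 CPM in the tumour libraries, without overlap. The log2 change was -1.01 (SE 0.19, limma adjusted p = 0.00336). The gene lies on chromosome 8 from 110741829 to 110805924. Csf1r, the gene of that receptor, had log2 CPM means of -0.89 in culture and 9.62 in the tumour libraries. Il17d, the IL-17 family ligand in the table, was at 0.587 to 1.89 CPM in culture and 0.422 to 0.492 CPM in the tumour libraries, and its log2 change of -1.22 (SE 0.47) did not pass (limma adjusted p = 0.0653). It was -1.67 without cultured library 1, -0.84 without cultured library 3 and -4.87 after quantile normalization, with adjusted p between 4.41e-05 and 0.17 over 12 alternatives.

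Among the remaining ligands, Il15, a growth factor of natural killer and memory T cells, rose from 2.32 ± 0.68 to 11.7 ± 3.79 CPM (SD, n = 3; limma adjusted p = 0.00105). Il16, a chemoattractant that binds CD4, rose from 3 cultured reads to 10.4 ± 4.09 CPM (SD, n = 3), a ratio of 421 (95% counting interval 144 to 2045). Of its exon bases 15.3% overlap those of Stard5 on the other strand. Il7, the survival factor of lymphocytes, was at 5.83 to 6.89 CPM in culture and 6.12 to 7.97 CPM in the tumour libraries, and its log2 change was 0.14 (SE 0.23, limma adjusted p = 0.65).

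**Figure D2:**
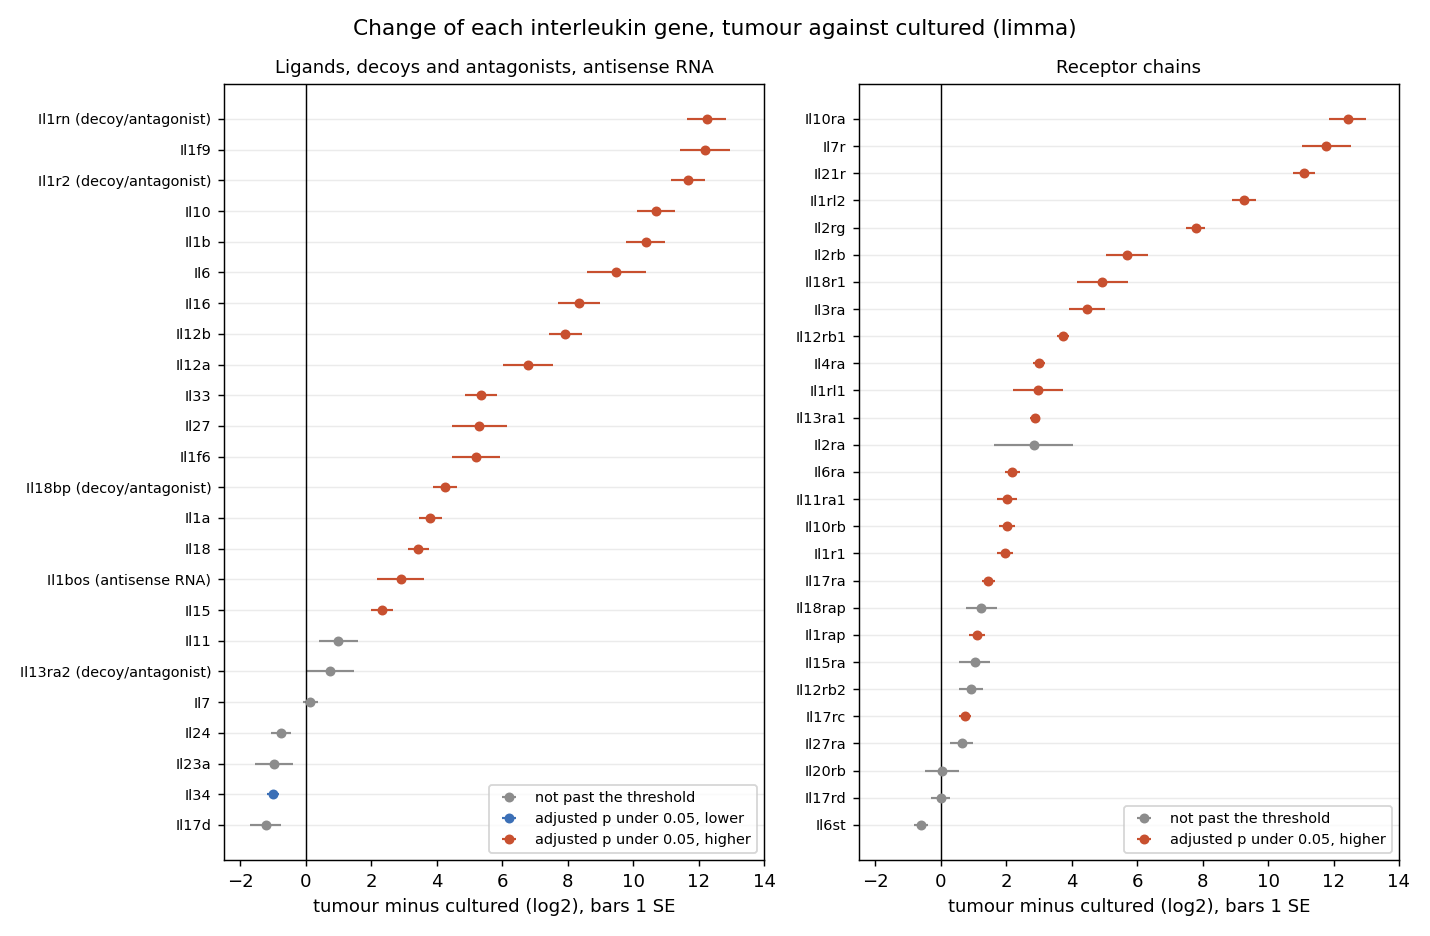
Log2 change of each of the 51 genes, tumour minus cultured, with bars of 1 SE from limma, ligands, decoys and the antisense RNA on the left and receptor chains on the right. Colours mark genes past an adjusted p of 0.05. The right panel has 19 chains called higher and 0 lower, and the left panel has Il34 as the gene called lower. Over all genes 29.5% were called higher and 18.8% lower.

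Of 4 decoys and antagonists, 3 rose, where 29.5% of all genes were called higher. Il1rn and Il1r2, with 26 and 5 cultured reads, were below the minimum of 61 in culture. Of all such genes 85.1% were called higher, so their direction was in part fixed. Il1rn, the gene of the IL-1 receptor antagonist, lies on chromosome 2 from 24336853 to 24351494, in one cluster with Il1f9 and Il1f6. It was at 0.258, 0.287 and 0.0574 CPM in culture and 1433, 513 and 891 CPM in the tumour libraries. The log2 change was 12.24 (SE 0.60, limma adjusted p = 2.71e-06). Per kilobase of exon it reached 0.111, 0.113 and 0.126 of the summed level of Il1a and Il1b in tumour libraries 1, 2 and 3. In the cultured libraries that ratio was 0.0020, 0.0019 and 0.00054, from 11, 13 and 2 reads of Il1rn. The tumour libraries were thus close to each other in this ratio although they differed in Il1rn itself.

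Il1r2, the decoy receptor that binds IL-1 but lacks the signalling domain, had 5 reads over the cultured libraries. It stood at 314, 74.9 and 211 CPM in tumour libraries 1, 2 and 3. Its log2 change was 11.68 (SE 0.52, limma adjusted p = 1.81e-06). Il1r1, the signalling receptor, was at 13.4, 13.1 and 8.15 CPM in culture and 39.2, 43.6 and 49.7 CPM in the tumour libraries (log2 change 1.96, SE 0.24, limma adjusted p = 0.000337). With 0.5 reads added to each gene, the level of Il1r2 per kilobase was divided by that of Il1r1. The ratio was 0.0146, 0.0141 and 0.0176 in the cultured libraries and 26.7, 5.73 and 14.2 in those from tumours. The cultured ratios rest on the 5 reads of Il1r2 and depend on that addition. The decoy was below the signalling chain in each cultured library and above it in each tumour library.

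Il18bp, which encodes a soluble trap for IL-18, was at 1.31, 1.44 and 3.07 CPM in culture and 41.6, 27.6 and 36.4 CPM in the tumour libraries. The log2 change was 4.26 (SE 0.37, limma adjusted p = 4.65e-05). Il13ra2, the decoy receptor of IL-13, was at 0.774, 0.861 and 0.115 CPM in culture and 0.814, 0.664 and 0.712 CPM in the tumour libraries. It stayed under 1 CPM in each library, and its log2 change of 0.73 (SE 0.72) did not pass (limma adjusted p = 0.44). After quantile normalization that change was -3.07 (limma adjusted p = 0.00128).

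Of 27 receptor chains, 19 rose, 0 fell and 8 did not pass, where 29.5% of all genes were called higher and 18.8% lower. Il10ra, Il18r1, Il1rl2, Il21r, Il2rb, Il2rg, Il3ra and Il7r, called higher, and Il2ra, not called, had fewer than 61 cultured reads. Of all such genes 85.1% were called higher. Among the 16 chains with a cultured mean of 1 CPM or more, 10 rose and 0 fell. Of all genes with such a mean 18.1% rose and 23.2% fell. The largest changes were those of chains at or near 0 in culture. These chains were in the table through their tumour reads, so the minimum of 61 reads in part fixed their direction. Il10ra, the ligand-binding chain for IL-10, had 2 cultured reads and stood at 190, 93.3 and 162 CPM in the tumour libraries, a ratio of 8990 (95% counting interval 2488 to 74242). Il7r, the IL-7 receptor chain, likewise had 2 cultured reads and stood at 107, 47.5 and 78.7 CPM, a ratio of 4718 (1306 to 38966). Il21r, with 0 cultured reads, reached 28.7, 21.7 and 31.0 CPM and was at least 1104-fold higher. Il1rl2, the IL-36 receptor chain, was also at 0 reads in culture and reached 7.92, 6.15 and 8.78 CPM, at least 310.2-fold higher. Beside these values, the T cell genes Cd4 and Cd8a, with 0 cultured reads, had tumour means of 1.60 and -0.56 log2 CPM. Of the 18 lymphocyte markers listed, 7 were in the table and 5 of these rose. Lck and Gata3, also among the 7, did not pass, with log2 changes of -0.85 and 0.18. The macrophage gene Csf1r had log2 CPM means of -0.89 in culture and 9.62 in the tumour libraries. Which cells made these receptor chains was not tested.

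Il2rg, the common gamma chain that receptors for IL-2, IL-4, IL-7, IL-15 and IL-21 share, rose from 0.337 ± 0.033 to 78.5 ± 19.1 CPM (SD, n = 3; limma adjusted p = 9.57e-07). Of its exon bases 30.5% overlap those of Gm20489 on the same strand. Il2rb, the chain for IL-2 and IL-15, rose to 4.65 ± 1.40 CPM (SD, n = 3). Il2ra, the high-affinity IL-2 chain, was at 0 to 0.375 CPM in culture and 0.492 to 1.57 CPM in the tumour libraries, and its log2 change of 2.84 (SE 1.21) did not pass (limma adjusted p = 0.0879). Il3ra rose to 6.48 ± 0.95 CPM (SD, n = 3). Il15ra was at 19.6, 5.79 and 5.60 CPM in cultured libraries 1, 2 and 3 and 19.2, 18.2 and 15.7 CPM in the tumour libraries. Its log2 change of 1.03 (SE 0.47) did not pass (limma adjusted p = 0.11). It was 1.63 without cultured library 1 and 0.31 with libraries centred on the epithelial list, with adjusted p between 0.00134 and 0.64 over 13 alternatives.

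Chains that the cultured cells expressed also rose. Il4ra and Il13ra1, which together form a receptor for IL-4 and IL-13, stood at 39.7 ± 3.61 and 31.3 ± 4.59 CPM in culture and 320 ± 60.6 and 229 ± 22.0 CPM in the tumour libraries (SD, n = 3). Their log2 changes were 3.00 (SE 0.18) and 2.88 (SE 0.16), with limma adjusted p = 6.65e-06 and 5.15e-06. Il17ra, the chain shared by IL-17 receptors, rose from 53.6 ± 2.43 to 149 ± 35.5 CPM and Il17rc, its partner for IL-17A, from 21.7 ± 2.60 to 36.6 ± 5.01 CPM (SD, n = 3). With libraries centred on the epithelial list, the change of Il17rc was 0.03 (limma adjusted p = 0.93). Il17rd did not pass, at 2.15 to 3.80 CPM in culture and 2.71 to 2.95 CPM in the tumour libraries. Il10rb, a chain shared by IL-10, IL-22 and other receptors, rose from 18.8 ± 4.74 to 75.5 ± 15.7 CPM (SD, n = 3), and Il20rb, at 0.640 to 2.47 CPM in culture and 0.950 to 1.49 CPM in the tumour libraries, did not pass.

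Of the IL-6 receptor chains, the binding chain rose and the signalling chain did not pass. Il6ra, which binds IL-6, rose from 17.2, 12.8 and 12.1 CPM in culture to 77.4, 50.7 and 64.4 CPM in the tumour libraries (log2 change 2.19, SE 0.22, limma adjusted p = 0.000125). Il6st, the gene of gp130, the signalling chain shared across that family, was at 213, 148 and 122 CPM in culture and 96.1, 110 and 106 CPM in the tumour libraries. All tumour values of Il6st lay below all cultured ones, but the log2 change of -0.59 (SE 0.21) did not pass (limma adjusted p = 0.0529). The change was -0.77 without cultured library 3, -0.37 without cultured library 1 and -1.31 with libraries centred on the epithelial list. Its adjusted p ranged from 0.00276 to 0.16 over 13 alternatives. The level of Il6st per kilobase divided by that of Il6ra was 9.65, 9.0 and 7.85 in the cultured libraries and 0.967, 1.70 and 1.28 in the tumour libraries.

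Il11ra1, which binds IL-11 and has near-identical copies in the mouse genome between which reads can be lost, rose from 2.14 ± 0.51 to 8.77 ± 1.86 CPM (SD, n = 3). Its log2 change was 2.03, and after quantile normalization it was 0.70 (limma adjusted p = 0.0942). Il12rb1, the chain shared by the receptors for IL-12 and IL-23, rose from 6.42 ± 1.08 to 84.4 ± 6.13 CPM (SD, n = 3; limma adjusted p = 2.95e-06). Il12rb2, its partner for IL-12, was at 1.42 ± 0.24 CPM in culture and 2.82 ± 1.18 CPM in the tumour libraries (SD, n = 3) and did not pass (limma adjusted p = 0.0727). Of its exon bases 40.0% overlap those of Serbp1 on the other strand. Il27ra, at 0.821 to 1.15 CPM in culture and 1.11 to 1.79 CPM in the tumour libraries, did not pass either.

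Of the 51 genes, the 6 of the IL-1 receptor family other than Il1rap lie beside each other on chromosome 1, from 40074079 to 40551705, and the decoy Il1r2 is one of them. All point the same way on the plus strand over 478 kb. Their cultured levels spanned the whole scale, from 0 reads for Il1rl2 to 62.3, 17.8 and 58.1 CPM for Il18rap, the co-receptor for IL-18. Il18rap was at 124, 73.1 and 92.6 CPM in the tumour libraries, above every cultured value, but its log2 change of 1.23 (SE 0.47) did not pass (limma adjusted p = 0.064). Without cultured libraries 1, 2 and 3 in turn the change was 1.55, 0.65 and 1.50, and with libraries centred on the epithelial list it was 0.52. Its adjusted p ranged from 0.0197 to 0.33 over 13 alternatives. Il18r1, the chain that binds IL-18 and without which Il18rap makes no receptor, had 5 reads over the cultured libraries and rose to 2.41, 0.591 and 1.27 CPM. Its log2 change of 4.94 was 0.98 after quantile normalization and no longer passed (limma adjusted p = 0.31). Il18r1 and Il18rap begin 391 and 441 kb after the first base of the cluster.

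Il1rl1, the IL-33 receptor ST2, was at 0.610, 0.221 and 2.33 CPM in culture and 5.89, 4.23 and 6.41 CPM in the tumour libraries (log2 change 2.97, SE 0.76, limma adjusted p = 0.0143). That call was lost without tumour library 3 (2.85, limma adjusted p = 0.0517) and after quantile normalization (0.94, limma adjusted p = 0.26). Il1rap, on chromosome 16, is the co-receptor for IL-1, IL-33 and IL-36, and rose from 32.5 ± 5.78 to 71.3 ± 21.8 CPM (SD, n = 3; limma adjusted p = 0.00886). With libraries centred on the epithelial list its change was 0.39 (limma adjusted p = 0.23).

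**Figure D3:**
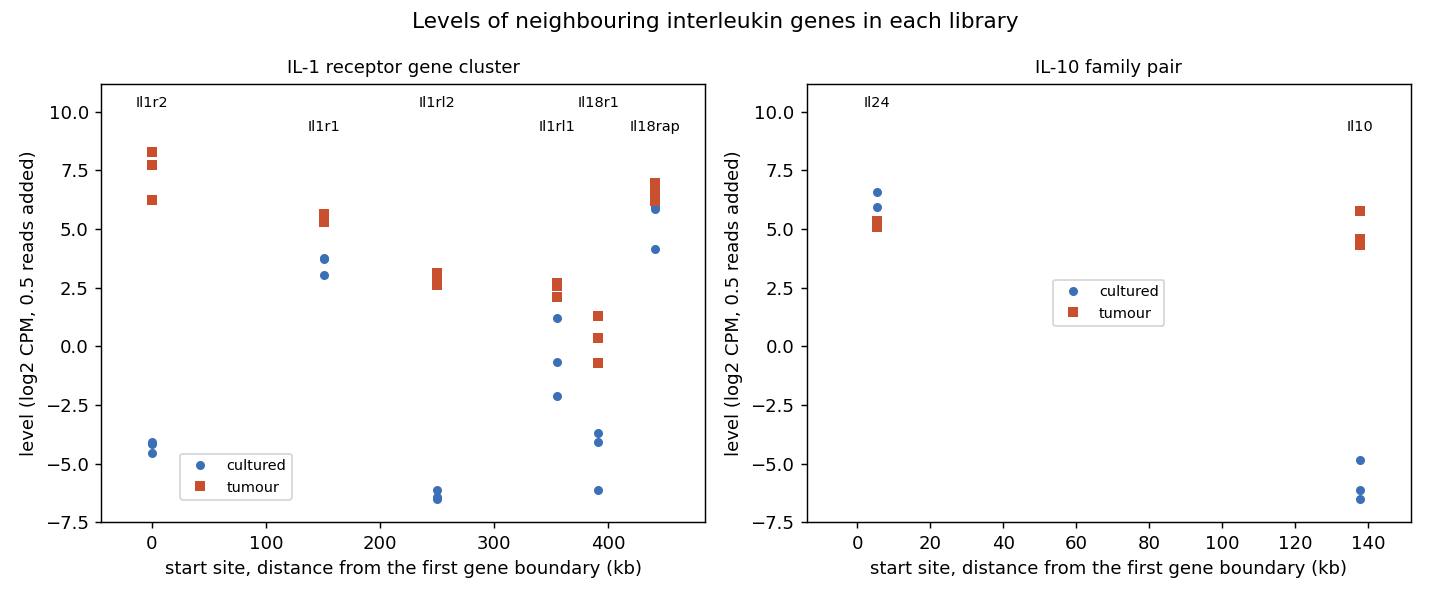
Levels in log2 CPM, with 0.5 reads added, of the 6 neighbouring genes of the IL-1 receptor cluster (left) and of Il24 and Il10 (right), against the distance of each start site from the first gene boundary in kb. Circles are cultured and squares tumour libraries. In culture Il18rap stands at 4.15 to 5.96 beside Il18r1 at -6.12 to -3.69, and Il24 at 5.31 to 6.60 beside Il10 at -6.50 to -4.83.

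To set ligands beside their receptors, each ligand was joined to the chains through which it is known to signal, and a gene was counted as present in a group with at least 1 CPM in all 3 libraries. All chains were in the table for 15 ligands or ligand subunits. In culture 2 of the 15 had ligand and chains present, Il1a with Il1r1 and Il1rap, and Il11 with Il11ra1 and Il6st. In the tumour libraries 11 of the 15 did, those 2 among them, and the additions were Il1b, Il33, Il1f9, Il6, Il12b, Il7, Il15, Il10 and Il34. Among the genes added, Il33, Il1f9, Il1rl2, Il6, Il12b, Il7r, Il2rb, Il2rg, Il10 and Il10ra each had fewer than 61 reads in culture. They were in the table through their tumour reads, so the minimum of 61 reads in part fixed the additions other than Il1b and Il34. At a threshold of 5 CPM the counts with ligand and chains present were 1 and 8. For Il7, Il15 and Il34 the ligand was present in culture and what was added was the receptor, Il7r or Il2rb with Il2rg, or Csf1r. For Il1b and Il6 the receptor chains were present in culture and the ligand was added. For Il12b the receptor chains were present too, but its product is a subunit and not a whole ligand. Il12a, the gene of the other IL-12 subunit, was at 0.369 CPM in tumour library 2 and did not count as present. Presence in one library does not show that ligand and receptor were made by the same cells. For Il23a and Il24 a receptor chain was outside the table, and they were not counted.

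Other genes of these pathways were read from lists of the same kind. Of 17 partner chains and related cytokines without an Il name, 10 rose and 0 fell, and the median of their log2 changes was 1.76. Among all genes 29.5% were called higher and 18.8% lower. Of the 17, 6 had fewer than 61 reads in culture, and 5 of these rose. Of the other 11, 5 rose, where the share over all genes with at least 61 cultured reads was 18.9%. Osm, an IL-6 family cytokine, and Csf2rb2, a mouse copy of the beta chain for IL-3, had changes of 11.06 (SE 0.30) and 10.55 (SE 0.76), and reads of Csf2rb2 and Csf2rb may be confused. Of 27 adaptors, kinases, STATs and feedback inhibitors, 19 rose and 1, Map3k7, fell, with a median of 0.97. Fewer than 61 cultured reads were found for 2 of the 27, which rose, and 17 of the other 25 rose. With libraries centred on the epithelial list 11 of the 27 rose and 4 fell. Irak3, an inhibitor of IL-1 receptor signalling, and Socs3, the feedback inhibitor of gp130 signals, had changes of 6.94 (SE 0.75) and 4.65 (SE 0.36). Of 12 genes for the processing and release of IL-1, 11 rose and 0 fell, with a median of 8.05. Of these 12 genes 9 had fewer than 61 reads in culture, the class of which 85.1% of all genes were called higher, and all 9 were called. Of the other 3, 2 rose. The inflammasome genes Mefv and Nlrp3 had changes of 10.88 (SE 0.83) and 10.30 (SE 0.53), while Casp1, the protease that cleaves IL-1 beta, had log2 CPM means of -2.44 in culture and 6.08 in the tumour libraries.

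Tumour library 2 stood below the others for many of these genes. Of the 51 genes, 42 had a tumour mean of 1 log2 CPM or more, and 29 of these (69.0%) were lowest in that library, against 37.5% of all genes with such a mean. The median difference of tumour library 2 from the mean of the other tumour libraries was -0.49 for the 42 genes and 0.03 for all such genes. The differences of Il1f9, Il1r2, Il12b, Il1a, Il1rn and Il1b were -2.76, -1.78, -1.31, -1.22, -1.14 and -1.02. By the same measure neutrophil markers had a median of -3.05 (9 of 10 lower), macrophage markers -0.55 (17 of 17 lower) and epithelial markers 0.07 (6 of 12 lower). Endothelial markers had a median of -0.51 (9 of 10 lower) and fibroblast markers -0.29 (10 of 11 lower). The medians of lymphocyte markers and of mast cell and basophil markers were 0.12 (1 of 4 lower) and 0.31 (1 of 3 lower). Il34, Il6st, Il17rc, Il7 and Il2rb were higher in that library than the mean of the others, by 0.22, 0.13, 0.33, 0.33 and 0.59. Without tumour library 2, 36 of the 51 genes were called higher and 1 lower. Without cultured library 3, which was lowest of the cultured libraries in 13 of the 21 genes whose cultured mean was 1 log2 CPM or more (61.9%, against 38.6% of all such genes), 37 were called higher and 3 lower.

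**Figure D4:**
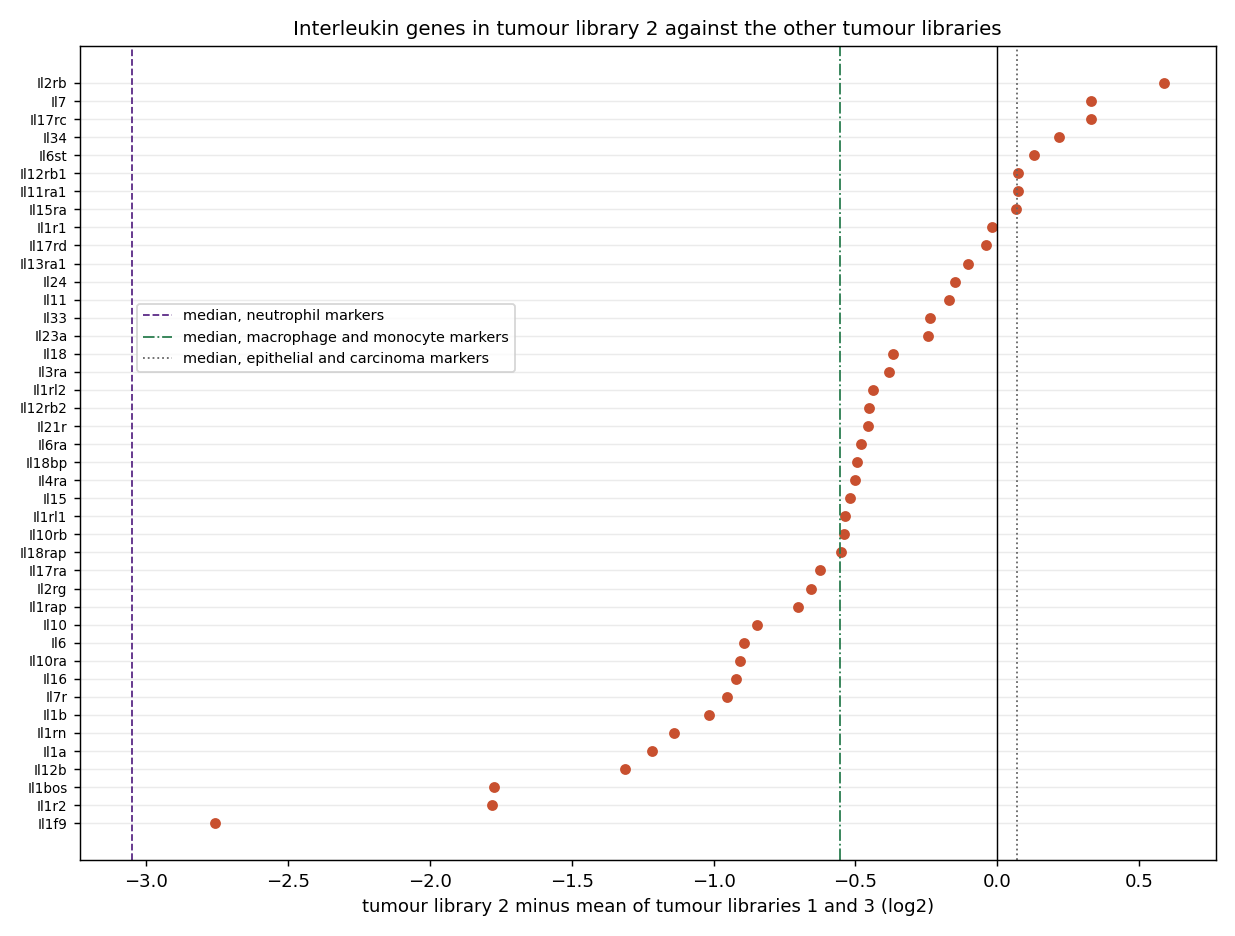
Log2 difference of tumour library 2 from the mean of tumour libraries 1 and 3 for the 42 genes whose tumour mean was 1 log2 CPM or more, 1 point a gene. Vertical lines are the medians of the same difference over neutrophil (-3.05), macrophage (-0.55) and epithelial (0.07) markers. The medians of endothelial (-0.51) and fibroblast (-0.29) markers are not drawn. Il1f9, at -2.76, is the point nearest the neutrophil line.

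Levels can be ordered across genes per kilobase of exon, with the union of all annotated exons of a gene as its length. The transcript made can be shorter, so the order depends in part on that choice. In the tumour libraries Il1rn was above Il1a in mean CPM, at 946 against 740, but below it per kilobase. In the means of the cultured libraries the order was led by Il23a, Il24, Il1a, Il34 and Il6st, at 64.6, 47.5, 24.5, 19.1 and 14.5 CPM per kilobase. The cultured values of Il23a and Il24, at 145 ± 124 and 65.8 ± 28.8 CPM (SD, n = 3), overlapped, so their order is not fixed by these data. In the means of the tumour libraries it was led by Il1b, Il1a, Il1rn and Il1r2, at 1099, 375, 171 and 105 CPM per kilobase, followed by Il13ra1 and Il4ra at 61.6 and 53.4. In tumour library 2 by itself Il1r2 lay below both Il13ra1 and Il4ra. Il23a and Il24 stood at 25.5 and 26.1 CPM per kilobase there.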

How the data were processed

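Per the submitters' processing notes, alignment was to mm10 with HISAT, genes were counted with HTSeq, and limma was used; versions are not named there. The table deposited by the authors holds log2 CPM in the form of limma's voom, with 0.5 reads added and library totals scaled by TMM. Reads solved from that form were whole, within 0.01, in 100% of values. CPM printed here are those reads over the scaled totals. For ratios between genes per kilobase of exon, 0.5 reads were first added to each gene. Tumour and cultured libraries were compared over all 13912 genes by limma 3.58.1 (R 4.3.3) with a variance trend, fitted to the log2 values as deposited. Tests were two-sided, with Benjamini-Hochberg adjusted p under 0.05 as the threshold. The fit was checked on simulated reads. Count models were not run because the deposited unit is log2. Exon lengths and coordinates came from GENCODE M21 on GRCm38, by symbol. A length is the union of all annotated exons of a gene, and the ratios per kilobase rest on it.

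The genes, roles, pairs and lists were chosen with earlier results of these data known. Values in every library are given for the 10 called genes with the largest change and a higher mean of at least 2 log2 CPM, those called lower, those not called with a higher mean of at least 3, decoys, and preset ligands with Il6st. From each other list the 2 called genes with the largest change and a mean of at least 3 are named. Other genes of these lists, and some members named with values, were added after their values were seen. Alternatives were the variance model, library weights, 2 reads added, a filter on low values, 3 scalings, other thresholds of presence and leaving out each library.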

Additional observations from a re-analysis of the deposited data

How the results depend on the processing

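Of the 37 called genes, 29 kept their call in each of 13 alternatives that tested them and 0 reversed. The calls of Il11ra1, Il18r1, Il1bos, Il1f6, Il1rl1 and Il27 were lost after quantile normalization, those of Il17rc and Il1rap with libraries centred on the epithelial list, and that of Il1rl1 also without tumour replicate 3. The median change of all genes was 0.08 as deposited, -0.14 with median centring, -0.32 after quantile normalization and -0.64 with epithelial centring. Interleukin genes called lower, 1 as deposited, were 4 with library weights, 4 with median centring, 10 after quantile normalization, 5 with epithelial centring and 1 to 3 with a library left out. All genes called lower, 2612 as deposited, were 5513 after quantile normalization, 5939 with epithelial centring and 1520 to 3301 with a library left out, the lowest without tumour replicate 3 and 1558 without tumour replicate 1. All genes called higher, 4099, were 2683 with epithelial centring. Partner chains called lower, 0, were 1 with weights, 4 after quantile normalization and 2 with epithelial centring. Signalling adaptors called higher, 19, were 11 with epithelial centring, and those called lower, 1, were 0 without a variance trend, 3 with weights, 2 with median centring, 4 with epithelial centring and 0 to 3 with a library left out. Complexes present in culture, 2, were 3 at 0.5 CPM and 1 at 5 CPM. Reversals occurred among genes that did not pass. With median centring Il20rb was at -0.19 and Il7 at -0.087. After quantile normalization Il12rb2, Il13ra2, Il20rb, Il27ra, Il2ra and Il7 were at -1.25, -3.07, -2.80, -1.99, -1.14 and -0.99. With epithelial centring Il20rb, Il27ra and Il7 were at -0.68, -0.084 and -0.58. With a library left out Il13ra2 ranged from -0.16 to 1.22, Il17rd from -0.20 to 0.21 and Il20rb from -0.38 to 0.58. The cause of these shifts was not tested. Counting error limits the ratios of the 10 genes with 0 to 3 cultured reads. No paired analysis was possible because the labels give the libraries of both groups numbers of which none is shared.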
